A study of Saccharomyces cerevisiae with 16 samples.

Results

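Budding yeast lacking HDA1 were compared with wild type by RNA-seq while both grew in raffinose, before any shift of carbon source. The wild-type strain was YSB787 and the deletion strain YTK113, whose genotype is labelled hda1-/- and is written hda1Δ here. Both cultures were in synthetic complete medium with raffinose and were taken at 0 min. These are 2 of the 16 libraries of the series, which follows the same strains through 8 stages, raffinose and then galactose and glucose, with 1 library per strain and stage. The stages are successive samples of a time course and not replicates. A trailing 1 in some galactose labels was taken to mean a second pulse of galactose. Each strain has 1 library here (n = 1), so no difference could be tested against the spread between cultures, and the intervals of levels and folds cover counting error only. Intervals of medians and shares describe the spread over ORFs in these libraries. The strain, its culture and its library cannot be told apart, and neither label says how many clones were used. The comparison ran over 5881 tested ORFs of the 6685 nuclear ORFs annotated. Those tested reached a mean of at least 1 FPKM (fragments per kilobase of gene, scaled to library size) over the 16 libraries.

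Hda1 is the catalytic subunit of a histone deacetylase complex that also contains Hda2 and Hda3. The complex removes acetyl groups from histones H3 and H2B, and at many promoters it acts together with the corepressor Tup1-Cyc8, which DNA-binding repressors bring to hypoxic, DNA damage, sugar and flocculation genes. It is also known for its action on genes that lie next to the telomeric regions. Raffinose is a sugar that yeast cleave outside the cell with invertase; it neither induces the GAL genes as galactose does nor represses them as glucose does. The comparison therefore asks what the absence of Hda1 changes in mRNA levels before galactose is added.

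HDA1 itself was at 32.6 FPKM in wild type and at 0.0364 FPKM in hda1Δ, which corresponds to 731 fragments and 1 fragment. This is a fold of 0.0308 (95% counting interval 0.0298 to 0.0360), and the labels of both libraries fit the targeted gene. At the other 7 stages HDA1 stayed at or under 0.162 FPKM in the deletion strain and between 27.0 and 38.8 FPKM in wild type. The partner subunits were still transcribed. HDA2 was at 23.7 FPKM in wild type and at 27.7 in hda1Δ, and HDA3 was at 16.5 and 14.2 FPKM. TUP1 was at 84.5 and 93.8 FPKM, and CYC8, which overlaps another annotated gene, was at 44.2 and 52.4 FPKM. The list of 19 genes of other histone deacetylases and their partners held none past 1.7-fold, with a median log2 fold of 0.07. Among them RPD3, which encodes a class I histone deacetylase, was at 40.9 FPKM in wild type and at 50.7 in hda1Δ (1.24-fold, 1.11 to 1.37).

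The libraries were of similar size. Wild type held 10.6 M fragments and hda1Δ 12.95 M, against a range of 9.37 to 13.8 M over the 16 libraries. RNA genes took 8.88% of gene-aligned bases in wild type and 10.6% in hda1Δ, and mitochondrial genes 0.279% and 0.344%. In a gene of 1 kb, a floor of 3 fragments equals 0.284 FPKM in wild type and at 0.232 FPKM in hda1Δ. The tested ORFs listed at 0 numbered 99 in wild type and 84 in hda1Δ. Among mating type markers, the a-factor gene MFA1 stood at 490 and 772 FPKM, the alpha-cell receptor gene STE3 at 1.49 and 0.652 FPKM, and the alpha-agglutinin gene SAG1 at 46.0 and 72.4 FPKM. HIS3, an unsteady ORF, was listed at 0 in both raffinose libraries but reached 85.7 FPKM in wild type and 68.0 in hda1Δ at later stages. The 8 tested selection marker genes had no member past 1.7-fold (median log2 fold 0.15).

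Most ORFs had nearly the same level in both strains. The median log2 fold of hda1Δ over wild type, taken on FPKM + 1, was 0.01 over all tested ORFs (0.00 to 0.01), and 94.0% of them lay within 1.7-fold. Past that rule, 288 ORFs were higher in hda1Δ (4.9%) and 65 were lower (1.11%). These are the shares beside which the counts of each gene list below are to be read. Of the calls, 81.6% were thus in the direction of a higher level. Many of the extreme values could not be read as levels, however. A group of 246 tested ORFs, called unsteady here, either fell under 3 fragments in some of the 16 libraries while reaching at least 10 FPKM in another, or had folds over the 8 stages with an SD above 1.25 on the log2 scale. They made up 56 of the 288 higher and 35 of the 65 lower ORFs. BNA1, an enzyme of NAD synthesis, is an example. It was near 0 in the raffinose library of wild type and at 59.2 FPKM in hda1Δ, while the median of the 8 wild-type libraries was 76.6 FPKM. CDC1 was the reverse, at 59.97 FPKM in wild type and listed at 0 in hda1Δ, and it was also listed at 0 in other libraries of both strains. Similar values were seen for SIS2 (0 and 52.8 FPKM), NAB6 (0 and 54.7 FPKM), MFB1 (32.0 and 0 FPKM), YMR050C (116 and 0 FPKM) and YGL088W (44.5 and 0.290 FPKM). After drop-out, overlapping and repeated ORFs were set aside, HOT13, VID22, LPL1, YGL176C and ROG1 still stood among the 15 highest with at least 10 FPKM, each listed at 0 in wild type in raffinose, along with YML079W at 2.04 FPKM. Under the same filters GTR2, YNL320W, POP3, YFH7, SPP381 and YHL018W stood among the 8 lowest, each listed at 0 in hda1Δ. None of these is taken as a difference between the strains.

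The account below therefore rests on 4656 clean ORFs, which overlap no other gene, have at most 10% repeated sequence and are not unsteady. Of these, 158 were higher (3.39%) and 13 were lower (0.279%) in hda1Δ, HDA1 itself being 1 of the 13. Their log2 folds had a median of 0.00 and an SD of 0.34, and 96.3% lay within 1.7-fold. The counting interval of the fold lay wholly above 1 for 143 of the 158 higher ORFs and above 1.7 for 84. At least 2-fold was reached by 111 and at least 3-fold by 32. The definition of the unsteady and clean ORFs was made after the values were seen, and it uses the other stages. Drop-out ORFs, with 1 raffinose library under 1/8 of the median of that strain's other 7, were not removed as such. At the edge of the rule stood FMP16 at 1.701-fold just inside and YOR152C at 1.689-fold just outside. On the lower side FIG1 stood at 0.561 just inside and YJL215C at 0.589 just outside.

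**Figure D1:**
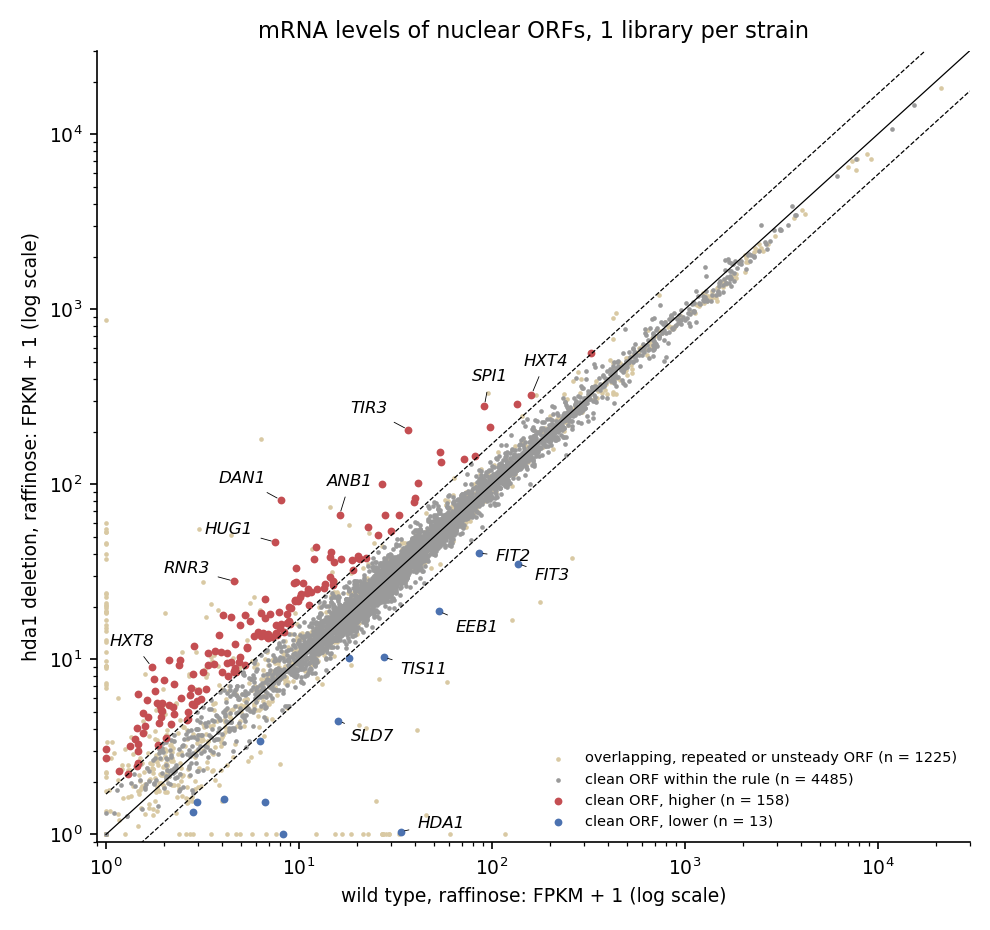
Level of each of the 5881 tested ORFs in wild type (x axis) and hda1Δ (y axis) in raffinose, as FPKM + 1 on log axes, 1 library per strain. The solid line marks equal levels and the dashed lines 1.7-fold. Red points are the 158 clean ORFs higher in hda1Δ and blue points the 13 lower. Grey points are clean ORFs within the rule, and pale points are overlapping, repeated or unsteady ORFs, some of them lying on either axis at a level of 0. XRS2, a clean lower ORF listed at 0 in hda1Δ, is a blue point at that level.

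The wild-type level enters the fold that chose the higher ORFs, so their levels are a description. Their median level stood at 4.47 FPKM in wild type and at 12.8 FPKM in hda1Δ, whereas the median of all clean ORFs was 31.9 and 32.3 FPKM. In wild type, 117 of the 158 were under 10 FPKM, 38 were between 10 and 100, and 3 were at 100 or more. Of the 158, 53 have no gene name, as do 552 of the 4656 clean ORFs. By level, 8.37% of the 932 clean ORFs lowest in mean level were higher, and 1.61 to 3.01% of each of the other 4 equal classes. By length, 5.36% of ORFs up to 648 bases and 1.40% of those over 2127 bases were higher. The median log2 fold of those over 2127 bases was 0.05, and that of ORFs between 648 and 1029 bases was -0.03.

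Anaerobic cell wall genes gave the largest fold among the clean ORFs. The DAN and TIR genes encode serine-rich mannoproteins that the cell puts into its wall when oxygen is scarce, and that are silent or low in air. DAN1 was at 7.05 FPKM in wild type and at 80.4 FPKM in hda1Δ (67 and 934 fragments), a fold of 10.1 (8.08 to 12.7). TIR3 was at 35.9 FPKM in wild type and at 204 in hda1Δ (5.56-fold, 4.95 to 6.27). TIR2 was at 21.7 and 56.3 FPKM (2.53-fold, 2.14 to 2.997). For DAN1, the lowest of the 8 hda1Δ libraries of the series, at 15.8 FPKM, lay above the highest of the 8 wild-type libraries, at 7.05 FPKM. TIR3 did not separate the strains in this way across stages, since its wild-type levels reached 68.3 FPKM and its lowest hda1Δ level was 43.0. TIR1, which is not a clean ORF, was at 143 and 244 FPKM, just past the rule. TIR4 and DAN4 were within the rule, at 9.18 and 9.40 FPKM and at 2.05 and 2.69 FPKM. Of the 6 members tested, 4 were thus higher and none was lower, with a median log2 fold of 1.05.

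The seripauperins, a large family of related small mannoproteins encoded mostly near chromosome ends, had 6 of 16 tested members higher and none lower (median log2 fold 0.52), and 2 higher with a pseudocount of 5 FPKM. All 6 share repeated sequence with their relatives, so that reads may be split between copies. PAU5 was at 4.87 FPKM in wild type and at 21.6 in hda1Δ, and PAU4 at 0.156 and 4.99 FPKM. Only 3 members are clean, and none of those passed the rule. PAU23 among them was at 11.1 and 10.1 FPKM.

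Hypoxic genes repressed in air by Rox1, an HMG-box protein that recruits Tup1-Cyc8, were higher for 4 of the 8 tested members (median log2 fold 0.75). ANB1, the hypoxic form of the translation factor eIF5A, was at 15.2 FPKM in wild type and at 65.8 in hda1Δ (4.12-fold, 3.27 to 5.27). CYC7, the hypoxic form of cytochrome c, was at 9.44 and 26.5 FPKM (2.63-fold, 1.84 to 3.83). It is also a drop-out ORF, through its wild-type value in raffinose. AAC3, an ADP/ATP carrier used without oxygen, was at 5.39 and 12.5 FPKM (2.12-fold). HEM13, an oxygen-requiring enzyme of heme synthesis, was at 71.1 and 139 FPKM (1.95-fold). The remaining members did not pass. COX5B was at 59.1 and 85.9 FPKM, HMG2 at 53.8 and 62.1, and the fatty acid desaturase gene OLE1 at 421 and 437. ROX1 itself was at 70.3 FPKM in wild type and at 57.5 in hda1Δ (0.820-fold, 0.745 to 0.903). The aerobic cytochrome c gene CYC1 was at 166 and 231 FPKM (1.39-fold).

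The windows before DAN1, TIR3 and ANB1 are shown because these genes carry the largest folds of both groups. Each runs from 250 bases before the start codon to 50 bases after its first base, 5′ to 3′ on the coding strand, in the R64 build from RefSeq. The windows are DAN1 at chrX:709658-709957, minus strand, TIR3 at chrIX:333477-333776, plus strand and ANB1 at chrX:525332-525631, minus strand. Capitals mark matches on either strand to ATTGTTC, the core recognised by Rox1, and to TCGTATA and TCGTTNA, 2 forms of the element recognised by the anaerobic activator Upc2.
DAN1: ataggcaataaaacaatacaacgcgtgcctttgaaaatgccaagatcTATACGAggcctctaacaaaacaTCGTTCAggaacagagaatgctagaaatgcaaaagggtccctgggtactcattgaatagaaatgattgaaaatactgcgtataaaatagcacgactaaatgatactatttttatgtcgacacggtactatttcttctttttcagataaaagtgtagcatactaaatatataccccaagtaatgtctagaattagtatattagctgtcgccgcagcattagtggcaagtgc
TIR3: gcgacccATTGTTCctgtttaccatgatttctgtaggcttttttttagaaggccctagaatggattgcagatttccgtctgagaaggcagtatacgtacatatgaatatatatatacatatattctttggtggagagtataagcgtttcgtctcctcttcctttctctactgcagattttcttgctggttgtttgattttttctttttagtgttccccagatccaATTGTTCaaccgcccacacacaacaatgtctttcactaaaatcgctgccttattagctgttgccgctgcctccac
ANB1: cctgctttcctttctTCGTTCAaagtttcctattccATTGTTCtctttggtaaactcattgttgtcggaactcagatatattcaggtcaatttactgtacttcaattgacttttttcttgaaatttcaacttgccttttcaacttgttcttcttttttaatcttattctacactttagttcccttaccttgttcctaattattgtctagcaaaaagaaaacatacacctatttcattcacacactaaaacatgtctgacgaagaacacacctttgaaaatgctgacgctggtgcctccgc
ATTGTTC occurred in 5 of the 8 hypoxic genes (62.5%), against 7.67% of the windows of all tested ORFs. They were ANB1 and HEM13, which were higher, and COX5B, HMG2 and OLE1, which did not pass. TCGTTNA occurred in 4 of the 6 DAN and TIR genes (66.7%), against 15.1% of all. They were DAN1 and TIR2, which were higher, and DAN4 and TIR4, which were within the rule. TIR3 and TIR1, both higher, had no match to it. Over the 158 clean higher ORFs neither motif stood out, with ATTGTTC in 8.23% and TCGTTNA in 14.6%. More motifs were scanned in the 158 and in all tested ORFs. AGGGG (Msn2 and Msn4) occurred in 23.4% and 21.6%, GNGGGG (Mig1) in 17.7% and 13.0%, and AGCCGCC (Ume6) in 3.80% and 2.06%. TCGTATA occurred in 5.06% and 4.13%, TGACTC (Gcn4) in 7.59% and 8.23%, and GNCACAA (Sum1 and Ndt80) in 7.59% and 10.3%. A match is a run of letters and not a measured binding site.

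Ribonucleotide reductase makes the deoxynucleotides for DNA, and part of its genes are held down by Rfx1 with Tup1-Cyc8 and released on DNA damage. RNR3, an alternative large subunit, was at 3.62 FPKM in wild type and at 26.9 in hda1Δ (100 and 911 fragments), a fold of 6.04 (5.10 to 7.17). HUG1, a small inhibitor of the small subunit, was at 6.55 and 45.8 FPKM (6.197-fold, 3.84 to 10.8), from 14 and 123 fragments. In both genes all 8 hda1Δ libraries of the series lay above all 8 wild-type libraries. RNR3 ranged from 9.95 to 33.4 FPKM in hda1Δ and from 3.22 to 7.39 FPKM in wild type. HUG1 ranged from 19.1 to 70.8 FPKM in hda1Δ and from 4.57 to 10.4 in wild type. The rest of the list did not pass. RNR2, which is not clean, was at 424 and 677 FPKM (1.60-fold), RNR4 was at 688 and 895, and the DNA glycosylase gene MAG1 was at 23.6 and 16.4 FPKM (0.708-fold). RFX1 was at 6.86 and 8.87 FPKM. With 2 of 14 higher (14.3%, against 4.9% of all tested ORFs) and none lower, the list's median log2 fold was -0.01. The conserved part of the Rfx1 element, TGGCAAC, had no match in the windows of any of the 14 genes and occurred in 2.81% of all.

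**Figure D2:**
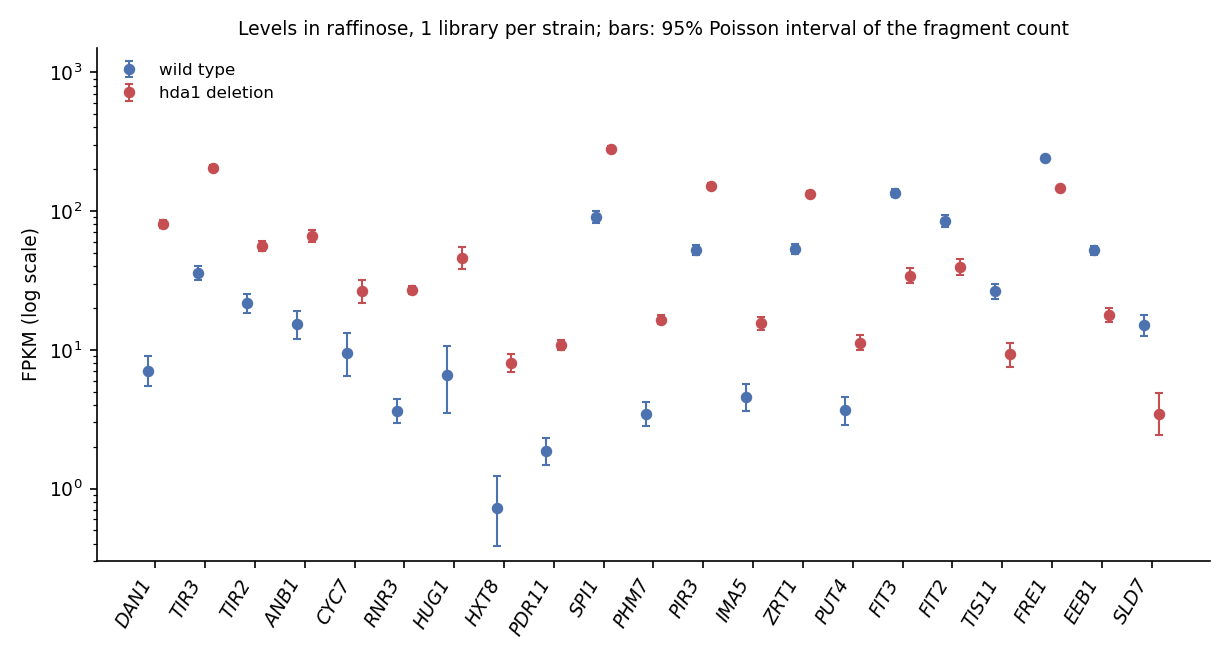
FPKM of 21 ORFs (x axis) in wild type (blue) and hda1Δ (red) in raffinose, on a log axis, 1 library per strain. Bars are 95% Poisson intervals of the fragment count and carry counting error only. From DAN1 to PUT4 the red point is above the blue, and from FIT3 to SLD7 below.

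Genes of sugar uptake and use were higher in part. Of 10 tested hexose transporters 4 were higher and none was lower (median log2 fold 0.48). HXT8, which is hardly transcribed in wild type, was at 0.724 FPKM there and 8.05 in hda1Δ (5.25-fold, 3.93 to 6.71). HXT4, another transporter, was at 159 and 324 FPKM (2.03-fold, 1.94 to 2.11). HXT5, the transporter of slow-growing cells, was at 1.65 and 4.01 FPKM (1.89-fold), and HXT3, which is not clean, at 62.5 and 108. The most abundant transporters did not pass. HXT2 was at 552 and 632 FPKM, and HXT6 and HXT7, near-identical copies, were each above 2000 in both strains and within 3% of 1-fold. With a pseudocount of 5 FPKM, or a 2-fold rule, 2 of the 10 transporters were higher.

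Maltose and sucrose genes sit mostly in subtelomeric clusters, and 7 of 14 were higher with none lower (median log2 fold 0.82). IMA5, an isomaltase, was at 4.56 FPKM in wild type and at 15.5 in hda1Δ (2.97-fold, 2.42 to 3.66). IMA1 was at 6.58 and 14.6 FPKM (2.06-fold, 1.72 to 2.50), and the neighbouring activator gene MAL13 at 7.66 and 15.0 (1.85-fold). The other 4, MAL12, MAL32, IMA3 and IMA4, are near-identical copies of one another or overlap another gene. MAL33 was within the rule at 36.5 and 42.1 FPKM. SUC2, whose product is the invertase that cleaves raffinose, was lower but within the rule, at 783 FPKM in wild type and at 504 in hda1Δ (0.643-fold, 0.627 to 0.660). The members summed to 908 FPKM in wild type and to 746 in hda1Δ, since SUC2 makes up most of it.

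Genes for other carbon sources are kept low while sugar is present. All 21 tested members of that list had a log2 fold above 0, with a median of 0.42, and 5 were past the rule. CYB2, the lactate dehydrogenase of mitochondria, was at 5.37 and 17.5 FPKM (2.90-fold, 2.39 to 3.52). PCK1, a key enzyme of gluconeogenesis, was at 2.17 and 7.52 FPKM (2.69-fold). SFC1 and CRC1, carriers of succinate and carnitine, were 2.24-fold and 2.19-fold higher, at under 10 FPKM in both strains. FDH1 was at 13.5 and 72.8 FPKM but shares sequence with a copy. With a pseudocount of 5 FPKM 3 members were past the rule. ADY2, ADH2 and MLS1 were within 5% of 1-fold. The GAL genes, which galactose induces later in the same experiment, had 1 of 12 past the rule, against 4.9% of all tested ORFs higher, and none with a pseudocount of 5 FPKM or a 2-fold rule. This was GAL7, at 1.64 FPKM in wild type and at 3.52 in hda1Δ (1.71-fold, 1.17 to 2.45). GAL10 was at 1.43 and 1.22 FPKM (0.912-fold), GAL3 at 3.21 and 5.40 (1.52-fold) and GAL2 at 0.949 and 1.25, and the median log2 fold was -0.02.

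Stress genes driven by Msn2 and Msn4 were higher for 6 of 25 tested members and lower for none (median log2 fold 0.18). SPI1, a cell wall protein of stationary phase, was at 90.4 FPKM in wild type and at 279 in hda1Δ (3.07-fold, 2.76 to 3.42). PHM7 was at 3.46 and 16.5 FPKM (3.93-fold, 3.32 to 4.63), and the small heat shock gene HSP26 at 8.58 and 20.7 (2.26-fold). HSP12, a membrane-associated stress protein, was at 134 and 288 FPKM (2.14-fold), and the regulator gene USV1 at 10.2 and 24.1. XBP1 was listed at 0 in wild type and is unsteady. The oxidative defence gene SOD2 was at 213 and 185 FPKM. Of 14 trehalose and glycogen genes, GAC1, a regulatory subunit for glycogen synthase phosphatase, was the 1 past the rule, at 32.0 and 65.6 FPKM (2.02-fold). That is 7.14% of the list, against 4.9% of all tested ORFs. All 14 had a log2 fold above 0, with a median of 0.20. For SPI1, PHM7, BAG7, NQM1 and YNL194C the raffinose value of wild type was the lowest of its 8 libraries. YNL194C, a membrane protein gene, was at 3.04 FPKM in wild type and at 17.0 in hda1Δ (4.46-fold, 3.25 to 6.11), while its wild-type level at other stages reached 402 FPKM.

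Several of the highest clean ORFs belonged to none of the lists or were picked out after their values were seen. PDR11, a sterol importer that lies next to TIR3, was at 1.85 FPKM in wild type and at 10.9 in hda1Δ (4.17-fold, 3.54 to 4.89). PIR3, a cross-linked wall protein, was at 52.6 and 152 FPKM (2.85-fold, 2.60 to 3.14), with all 8 hda1Δ libraries (110 to 312 FPKM) above all 8 wild-type libraries (25.4 to 78.1). COX26, a small protein of cytochrome oxidase supercomplexes, was at 26.0 and 99.9 FPKM (3.74-fold), whereas none of the 34 tested genes of the respiratory chain list passed. BAG7, a GTPase-activating protein for Rho1, was at 5.67 and 21.1 FPKM (3.32-fold). SGA1, the glucoamylase of sporulation, was at 3.96 and 14.8 FPKM (3.18-fold). NQM1, a transaldolase related to Tal1, was at 11.03 and 36.3 FPKM (3.10-fold). The remaining ORFs among the 30 highest clean ORFs with at least 10 FPKM in hda1Δ were FHN1, YJL218W, YHL044W, YER053C-A, PRR2, MGA1, SPG4, YBR201C-A, YBR285W, BDH2 and ECM13, between 2.56-fold and 3.58-fold.

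Nutrient lists other than sugar also held higher ORFs. Their counts stand beside 4.9% of all tested ORFs and 8.37% of the clean ORFs lowest in mean level. Of 21 tested genes under nitrogen catabolite repression 4 were higher (median log2 fold 0.15). They were GAP1, the general amino acid permease, at 40.5 and 101 FPKM (2.45-fold, 2.26 to 2.66), the proline permease PUT4 at 3.67 and 11.3 (2.62-fold), PUT1 at 3.24 and 8.52, and DAL3 at 3.004 and 7.42. The arginase gene CAR1 was at 76.9 and 47.3 FPKM (0.619-fold). Of 14 phosphate genes 4 were higher (median log2 fold 0.34). PHO89, a phosphate transporter, was at 0.803 and 5.62 FPKM (3.67-fold, 2.70 to 4.71) and the nucleotidase PHM8 at 14.2 and 35.2 (2.38-fold), while PHO11 and PHO12 are near-identical subtelomeric copies. Of 11 zinc genes 2 were higher (median log2 fold -0.03). ZRT1, the high-affinity zinc transporter, was at 53.2 and 133 FPKM (2.47-fold, 2.26 to 2.70) and VEL1 at 0.335 and 2.22. Of 23 thiamine and vitamin B6 genes 5 were higher and none lower (median log2 fold 0.46), among them the regulator gene THI2 at 2.63 and 8.46 FPKM (2.61-fold) and SNO1 at 1.22 and 4.34 (2.40-fold). Of 9 copper genes 3 were higher, but none of the 3 is clean (median log2 fold 0.33). The CUP1 copies were at 423 and 895 FPKM and at 438 and 952 FPKM, and CTR2 was listed at 0 in wild type. With a pseudocount of 5 FPKM the higher members numbered 2 for nitrogen, 1 for zinc and 2 for the vitamins, and with 0.1 FPKM 8 for the vitamins.

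A few genes of meiosis were higher at low levels. Of 33 tested members 5 were higher (15.2%) and none was lower (median log2 fold 0.09). The share was 4.9% of all tested ORFs and 8.37% of the clean ORFs lowest in mean level. None of the 33 passed with a pseudocount of 5 FPKM, and 9 did with 0.1 FPKM. IME1, the master activator of meiosis, was at 1.11 FPKM in wild type and at 4.46 in hda1Δ (13 and 63 fragments; 2.59-fold, 1.75 to 3.63). SPO20, a SNARE protein for spore membranes, was at 0.553 and 3.97 FPKM (3.20-fold, 2.17 to 4.24). DIT1, for the spore wall, was 2.19-fold higher, the recombination gene MEI4 1.97-fold and the meiotic cohesin gene REC8 1.71-fold. Each of the 5 stayed under 10 FPKM in hda1Δ. ZIP1 and MSH5 were at 0.728-fold and 0.784-fold. Of 9 flocculin and adhesion genes only FLO1 passed, at 1.299 and 4.53 FPKM with repeated sequence, while FLO8 and SFG1, which encode regulators of filamentous growth, were at 0.697-fold and 0.644-fold (list median log2 fold 0.19). FLO1 did not pass with a pseudocount of 5 FPKM.

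Few ORFs were lower, and iron genes made up 4 of the 12 clean ones left after HDA1. The iron regulon is switched on by Aft1 when iron is short. FIT3, a wall mannoprotein that retains iron carriers, was at 135 FPKM in wild type and at 34.3 in hda1Δ (878 and 273 fragments), a fold of 0.259 (0.226 to 0.297). Its relative FIT2 was at 84.5 and 39.5 FPKM (0.474-fold, 0.403 to 0.554). FRE5, a predicted ferric reductase at low level, was at 1.95 and 0.533 FPKM (0.520-fold, 0.403 to 0.689). FIT2, FIT3 and FRE5 lie side by side on chromosome XV, between bases 1059531 and 1063648. TIS11, which binds mRNAs of iron-using proteins for decay and lies on chromosome XII, was at 26.5 and 9.30 FPKM (0.375-fold, 0.3002 to 0.465). The reductase gene FRE1 was at 240 and 146 FPKM (0.610-fold, 0.586 to 0.636), just outside the rule, and the iron oxidase gene FET3 at 240 and 169 (0.707-fold). In the other direction, FIT1, of the same family as FIT2 and FIT3 and with repeated sequence, was at 5.86 and 10.02 FPKM (1.61-fold), within the rule, and was higher past it at 5 later stages. The low-affinity transporter gene FET4 was at 45.6 and 73.8 FPKM (1.60-fold, 1.475 to 1.75), within the rule. With 4 of 26 lower and none higher, the list's median log2 fold was -0.11, and most of its members were within the rule.

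The windows before FIT3, FIT2 and TIS11 are shown because they share the core recognised by Aft1. They span the same range around the start codon in R64 from RefSeq, FIT3 at chrXV:1061006-1061305, minus strand, FIT2 at chrXV:1059281-1059580, plus strand and TIS11 at chrXII:416609-416908, minus strand. Capitals mark TGCACCC on either strand.
FIT3: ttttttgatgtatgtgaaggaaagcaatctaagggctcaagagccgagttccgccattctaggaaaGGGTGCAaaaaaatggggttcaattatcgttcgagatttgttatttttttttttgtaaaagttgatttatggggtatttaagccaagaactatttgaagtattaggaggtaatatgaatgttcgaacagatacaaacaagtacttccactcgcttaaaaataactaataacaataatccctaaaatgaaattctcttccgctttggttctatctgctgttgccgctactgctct
FIT2: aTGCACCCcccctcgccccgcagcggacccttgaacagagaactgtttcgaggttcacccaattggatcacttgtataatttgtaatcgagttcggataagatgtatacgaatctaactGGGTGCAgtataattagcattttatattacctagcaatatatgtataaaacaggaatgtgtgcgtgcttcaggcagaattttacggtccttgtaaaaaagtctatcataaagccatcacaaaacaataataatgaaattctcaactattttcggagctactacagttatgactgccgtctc
TIS11: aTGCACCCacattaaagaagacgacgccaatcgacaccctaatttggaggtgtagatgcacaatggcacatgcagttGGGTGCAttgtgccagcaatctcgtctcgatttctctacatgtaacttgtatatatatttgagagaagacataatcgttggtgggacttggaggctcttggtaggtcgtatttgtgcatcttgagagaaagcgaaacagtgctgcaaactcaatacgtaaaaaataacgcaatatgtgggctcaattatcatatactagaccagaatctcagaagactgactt
TGCACCC occurred in the windows of all 4 lower iron genes, FRE5 included, and in 13 of the 26 iron genes, among them FIT1 and FET4. It occurred in 1.31% of all windows and in 0.633% of those of the 158 clean higher ORFs. The median log2 fold of the 62 clean ORFs that hold it was -0.01, which is close to the 0.00 of those that do not.

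The other clean lower ORFs did not share a list. EEB1, an enzyme of ester synthesis, was at 52.1 FPKM in wild type and at 17.8 in hda1Δ (0.355-fold, 0.312 to 0.403). SLD7, a DNA replication factor, was at 15.0 and 3.47 FPKM (0.279-fold, 0.204 to 0.386), but it was within 1.7-fold at each of the other 7 stages. Its neighbour by systematic name (YOR060C and YOR059C) is LPL1, set aside above. LPL1 was at 17.4 FPKM in hda1Δ in raffinose and listed at 0 in every other library. Whether reads were assigned differently between these neighbours was not tested, so the SLD7 value is uncertain. FIG1, a mating gene, was at 17.3 and 9.25 FPKM (0.561-fold) and was the 1 member past the rule among 22 mating type and pheromone genes (median log2 fold -0.01). POX1, the first enzyme of fatty acid oxidation in peroxisomes, was at 5.31 and 2.43 FPKM (0.543-fold) and was the 1 of 15 in that list (median log2 fold -0.15). Neither FIG1 nor POX1 passed with a pseudocount of 5 FPKM or a 2-fold rule. PGU1, YKR073C and YMR030W-A were lower at under 6 FPKM in wild type. YKR073C is likewise next by systematic name to SIS2 (YKR072C), set aside above at 0 and 52.8 FPKM. XRS2, a DNA repair gene, was at 7.31 FPKM in wild type from 198 fragments and was listed at 0 in hda1Δ. It stayed under 10 FPKM, below the level used to define unsteady ORFs, and it passed as lower at none of the other stages.

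**Figure D3:**
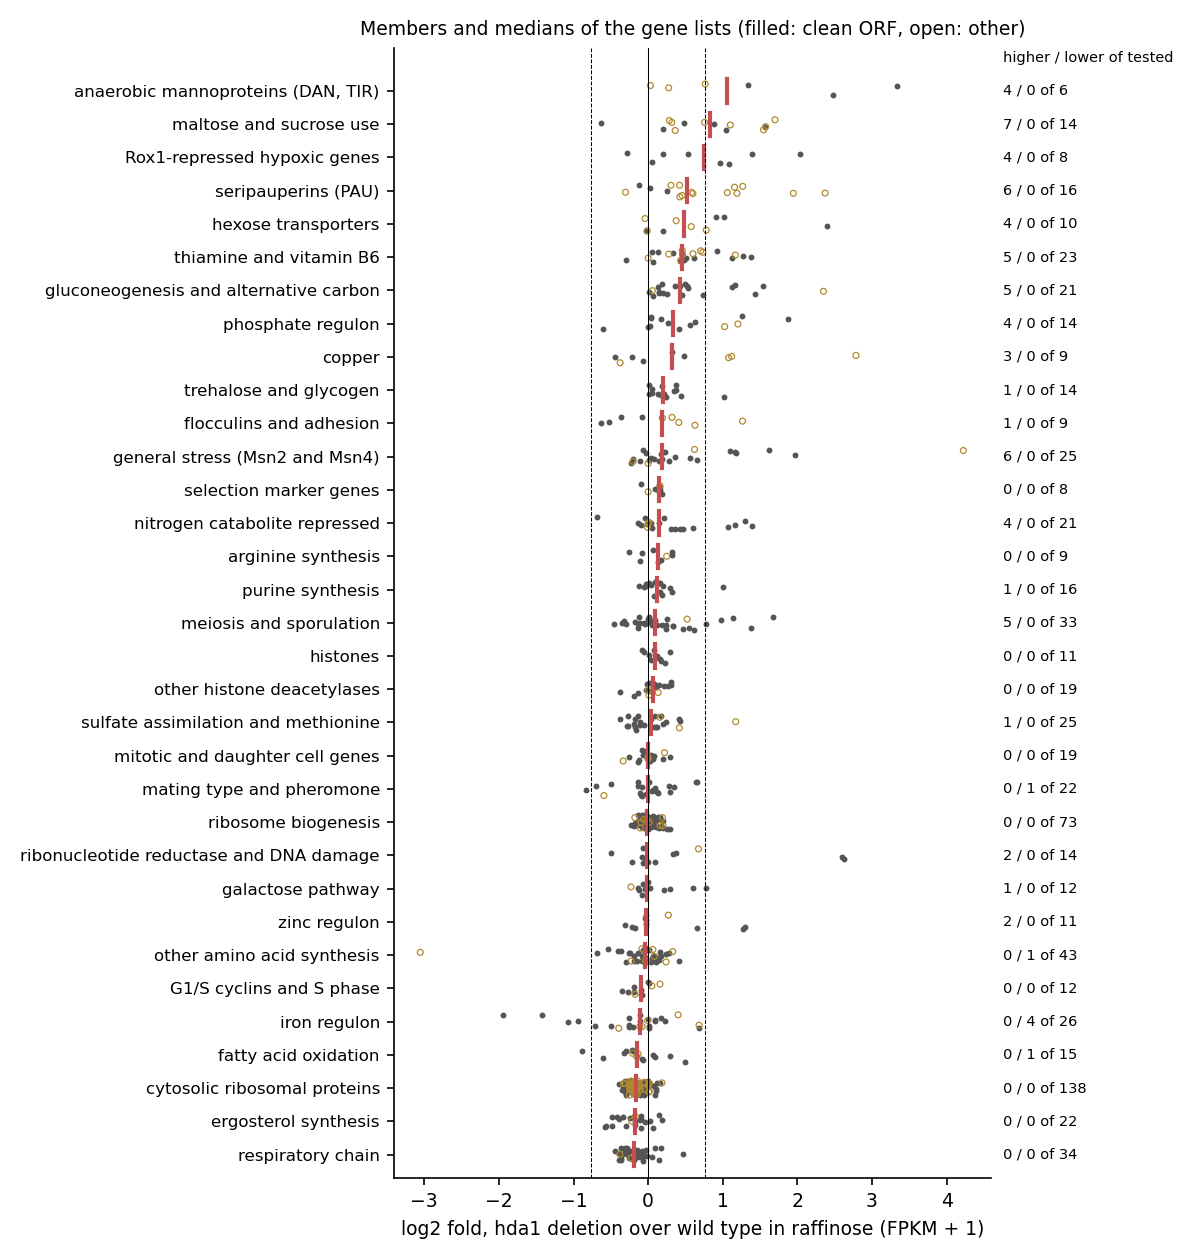
Log2 fold of hda1Δ over wild type in raffinose (x axis, FPKM + 1) for each tested member of 33 gene lists (y axis), the list of the Hda1 complex left out. Filled points are clean ORFs, open points are not, and red bars are list medians. Numbers at the right give members higher and lower past 1.7-fold (dashed lines). The DAN and TIR genes have the highest median (1.05) and the respiratory chain the lowest (-0.19).

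Growth and housekeeping lists held few calls, and their medians differed. Over all tested ORFs 4.9% were higher and 1.11% were lower. The longest list, of 138 genes with 0% higher, lay below that share, whereas in the shortest lists 1 call moves the share widely. None of the 138 cytosolic ribosomal protein genes passed, and 14 of them had a log2 fold above 0, with a median of -0.16 (-0.17 to -0.15). The respiratory chain (34 genes, median -0.19), ergosterol synthesis (22 genes, median -0.18) and G1/S cyclins with S phase genes (12 genes, median -0.10) also had no member past the rule. The lowest ergosterol genes were ERG25 at 799 and 536 FPKM (0.671-fold) and ERG3 at 430 and 290 (0.674-fold), the sterol desaturase of that pathway. Ribosome biogenesis (73 genes, median -0.01), mitotic and daughter cell genes (19, median 0.00), histones (11, median 0.09) and arginine synthesis (9, median 0.13) had no member past the rule either. ADE17 alone passed among 16 purine genes, at 24.6 and 50.4 FPKM (2.01-fold; list median 0.12). MET2, which overlaps another gene, alone passed among 25 sulfate and methionine genes (2.26-fold; list median 0.03), and did not with a pseudocount of 5 FPKM. Of 43 other amino acid genes ILV6, an unsteady ORF, was the 1 lower (list median -0.04), and HIS4 was within the rule at 43.2 and 26.5 FPKM.

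Position on the chromosome went with the share of higher ORFs. Within 25 kb of a chromosome end, 64 of 272 tested ORFs were higher (23.5%, 95% Clopper-Pearson interval 18.6 to 29.0), compared with 224 of 5609 farther in (3.99%, 3.496 to 4.54). Genes are not independent replicates, so these intervals describe these ORFs in these 2 libraries. Many subtelomeric ORFs have repeated sequence. Among clean ORFs, 21 of 128 within 25 kb were higher (16.4%, 10.5 to 24.0) and 137 of 4528 beyond it (3.03%, 2.55 to 3.57). The share was 26.3% under 10 kb (5 of 19), 14.7% from 10 to 25 kb, 4.11% from 25 to 50 kb and 2.95% beyond. Clean ORFs within 25 kb had a median of 14.6 FPKM in wild type, compared with 32.3 FPKM beyond. Split by the mean level over the 16 libraries, the share within 25 kb against beyond was 28.0% and 17.1% at 1 to 5 FPKM, 18.2% and 8.55% at 5 to 10, 29.4% and 2.57% at 10 to 20, 9.09% and 1.55% at 20 to 50, and 6.45% and 2.43% at 50 or more. In each of these 5 classes the end ORFs had the larger share, with between 2 and 7 end ORFs higher per class.

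**Figure D4:**
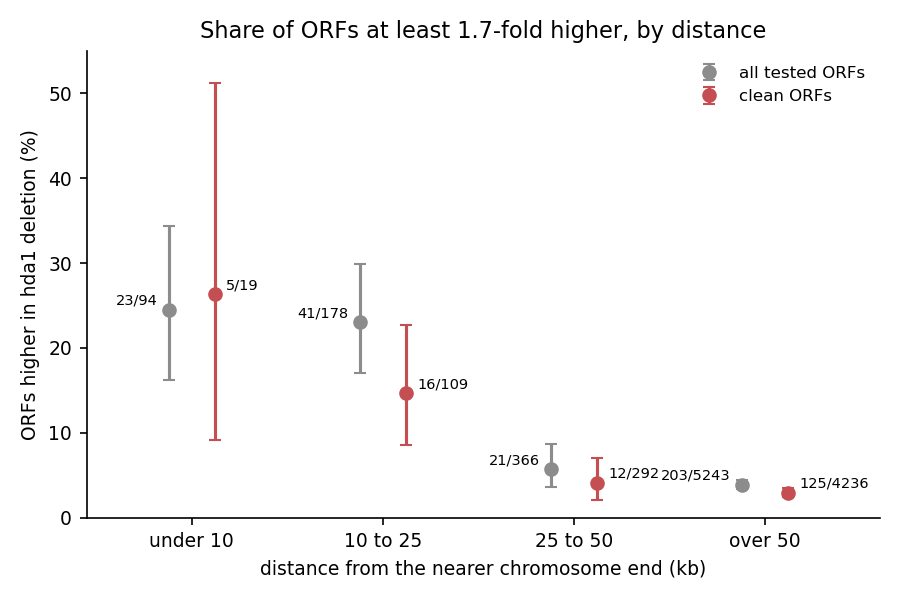
Share of ORFs at least 1.7-fold higher in hda1Δ (y axis, percent) by distance from the nearer chromosome end (x axis, kb), for all tested ORFs (grey) and clean ORFs (red). Labels give ORFs higher over ORFs in the class, and bars are 95% Clopper-Pearson intervals over ORFs. The share is above 14% in both classes under 25 kb and under 6% beyond.

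The higher end ORFs were spread over many chromosomes. Of 32 chromosome ends, 29 had a clean ORF within 25 kb and 15 had at least 1 higher clean ORF. YJL218W, an unnamed ORF near the left end of chromosome X, was at 11.3 FPKM in wild type and at 42.6 in hda1Δ (3.54-fold, 2.77 to 4.53). YHL044W on chromosome VIII was at 8.63 and 32.3 FPKM (3.45-fold). YAL064W on chromosome I, which is unsteady because it fell under 3 fragments in some libraries, was at 1.49 and 10.1 FPKM (4.45-fold). PHO89, ZRT1, IMA1 and MAL13, described above, also lie within 25 kb of an end. AIF1, which encodes a mitochondrial cell death effector, and its neighbour COS10 at the right end of chromosome XIV were 1.88-fold and 1.82-fold higher. DAN1 lies 36.5 kb from its end and HXT8 27.7 kb, just beyond the limit used.

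Some higher ORFs were neighbours. Among the clean ORFs, 18 adjacent pairs less than 5 kb apart were both higher, which involved 34 of the 158. PDR11 and TIR3 are divergent neighbours on chromosome IX, between bases 328207 and 334536. HXT8, YJL213W and the peptide transporter gene OPT1 form a run on chromosome X, at 5.25-fold, 2.95-fold and 2.17-fold. BIO2, IMA1 and MAL13 form another on chromosome VII, at 2.17-fold, 2.06-fold and 1.85-fold. The repressor gene NRG1 and HEM13 lie next to each other on chromosome IV, at 1.93-fold and 1.95-fold. No count of the pairs that distance alone would give was made.

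The same ORFs were followed to the 7 later stages, where each comparison has its own pair of libraries. As successive samples of a time course, these stages do not replicate the raffinose comparison. Of the 158 clean higher ORFs, 83.5% passed as higher at 15 min of galactose (6.72% of all clean ORFs), 82.3% at 30 min (8.16%) and 70.3% at 120 min (6.96%). In glucose, 69.0% passed at 30 min (4.7% of all clean ORFs) and 69.6% at 120 min (3.74%). In the second galactose pulse the share was 39.9% at 15 min (2.28%) and 27.2% at 30 min (1.98%). The clean set requires steady folds over stages, so these shares are not independent of its definition. Over all 288 higher ORFs, without that requirement, the shares were 69.1, 68.1, 59.4, 59.0, 58.7, 40.6 and 32.3% in the same order of stages, against 7.84, 9.35, 8.06, 5.95, 5.02, 3.52 and 3.32% of all tested ORFs. The 56 unsteady higher ORFs passed as higher at 21.4 to 32.1% and as lower at 8.93 to 21.4%, against 1.7, 2.41, 9.79, 1.39, 1.26, 5.92 and 4.69% of all tested ORFs lower at the 7 stages. Of the 158, 28 passed at all 7 later stages and 7 at none. DAN1, HUG1, RNR3, TIR3, PDR11, ANB1, HXT8, PIR3 and SGA1 were among the 28. In the other direction, 12 of the 158 were lower past the rule at 1 or more later stages. At single later stages 0 to 3.16% of the 158 passed as lower, against 0.322 to 9.6% of all clean ORFs.

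**Figure D5:**
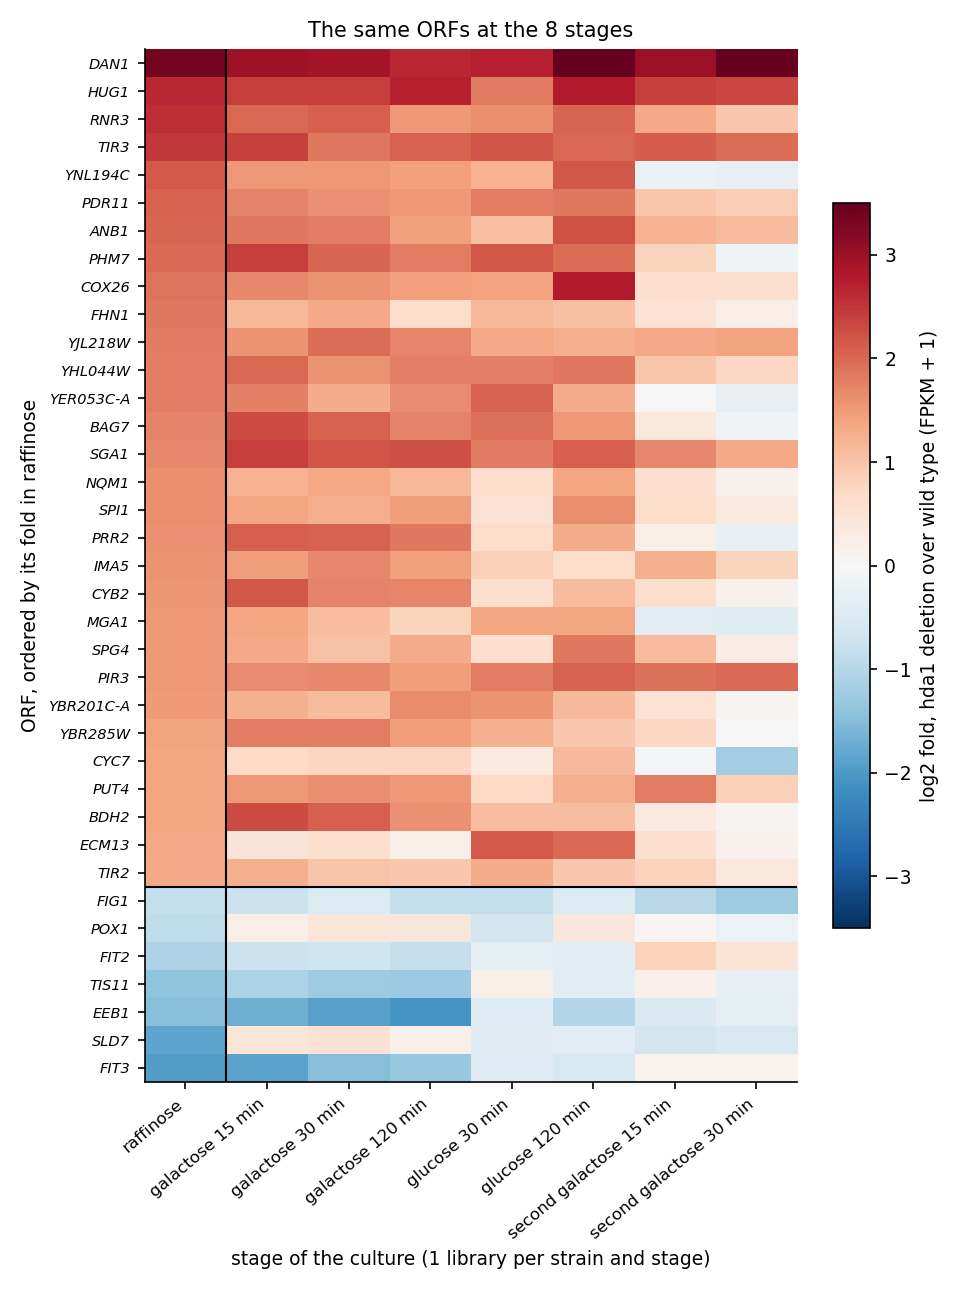
Log2 fold of hda1Δ over wild type (colour, FPKM + 1) for 2 groups of clean ORFs. Above the line are the 30 highest in raffinose with at least 10 FPKM in hda1Δ. Below it are 7 of the 12 lower ones other than HDA1, namely TIS11, FIT2, FIT3, EEB1, SLD7, FIG1 and POX1. The rest, XRS2 among them, are not drawn. Columns are the 8 stages in culture order, 1 library per strain and stage. DAN1, HUG1 and TIR3 are red throughout. PHM7, BAG7, PRR2 and MGA1 are red until glucose 120 min and pale or blue at second galactose 30 min. SLD7 is dark blue in the raffinose column.

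Of the 13 clean lower ORFs, 6, 6 and 7 were also lower at 15, 30 and 120 min of galactose (0.988, 1.5 and 9.6% of all clean ORFs). In glucose 2 were lower at 30 min (0.43%) and 2 at 120 min (0.322%), and in the second pulse 2 at 15 min (5.35%) and 3 at 30 min (4.1%). HDA1 was the 1 that passed at all 7, and 4 passed at none. FIT3 was at 43.0 FPKM in hda1Δ and 159 in wild type at 15 min of galactose and at 55.6 and 141 FPKM at 120 min. At 30 min of glucose it was at 157 and 215 FPKM, and in the second pulse at 141 and 129 FPKM (15 min) and 229 and 209 FPKM (30 min). TIS11 likewise stood under wild type through the first galactose pulse, at 4.57 FPKM against 12.4 at 120 min, and near it from 30 min of glucose on, at 64.3 against 55.7 FPKM. EEB1 was under wild type at all 8 stages and past the rule at 4 of the later 7. Its wild-type level was 52.1 FPKM in raffinose and 8.99 at the last stage.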

How the data were processed

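RNA was extracted by the authors with hot phenol, and directional mRNA libraries were sequenced on a HiSeq2500. The authors aligned reads by HISAT2 2.0.4 and ran StringTie 1.3.0 on the R64 annotation (release 86); FastQC 0.11.5, SAMtools and bedtools 2.26.0 are in the submitters' processing notes. The deposited StringTie files give coverage, FPKM and TPM for each gene's single transcript. FPKM was made by the authors, and other values deposited were used only as alternatives. The libraries were strand-specific, but the StringTie command in the file headers carries no strand option, and single or paired reading is not given in the sources used here. Values written slightly below 0 were set to 0.

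Coverage times length gave aligned bases, and 202 bases, the most frequent small value (306 gene values, with 299 at 101 bases), were counted as 1 fragment. Folds used a pseudocount of 1 FPKM, with 1.7-fold (0.588 for lower) as the rule. Intervals at 95% are exact binomial on fragments for folds and exact Poisson for levels, which cover counting error only, and order-statistic for medians and Clopper-Pearson for shares, which are over ORFs. No test was run, since each group has 1 library.

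The comparison, the 34 gene lists and the rules were chosen with earlier results of these data known. Named were HDA1, HDA2, HDA3, TUP1, CYC8, the 15 highest and 8 lowest ORFs with at least 10 FPKM in the higher library that were not overlapping, repeated or drop-out ORFs, 2 highest and 2 lowest members of each list, 3 highest and 3 lowest drop-out ORFs (1 raffinose library under 1/8 of the median of that strain's other 7) and 3 chromosome-end ORFs. Unsteady and clean ORFs, the 30 highest of these, and other genes in the text were chosen after their values were seen. Of 6685 nuclear ORFs, 5994 had the same coordinates in RefSeq R64. The procedure was tested on simulated data. Fragments there followed the Poisson distribution, without variation between cultures, drop-outs or reads split between genes. The simulation therefore cannot judge the calls against those errors. Scripts ran on Python 3.11.15 using SciPy 1.17.1, pandas 2.3.3, matplotlib 3.10.9 and NumPy 2.4.6.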

Additional observations from a re-analysis of the deposited data

Results flagged for a closer look

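Changes of direction between stages were flagged among the named clean ORFs only. Of all 158 clean higher ORFs, 12 were lower past the rule at 1 or more later stages. CYC7 was higher in hda1Δ in raffinose and lower past the rule at 30 min of the second galactose pulse, with a log2 fold of -1.22 there (574 FPKM in wild type and 246 in hda1Δ). FIT2 was lower in raffinose and higher at 15 min of the second pulse, with a log2 fold of 0.82 (126 and 222 FPKM). Neither difference between stages was tested, because each strain has 1 library per stage. Among the RNA genes, which the comparison of ORFs leaves out, 5 that overlap no other gene were past 1.7-fold with at least 20 fragments in the higher library. SNR128 was 4.004-fold higher in hda1Δ (715 and 2868 FPKM), SNR36 2.29-fold, SNR48 1.82-fold and SNR68 1.75-fold. SNR190 was at 0.231-fold (8035 and 1853 FPKM). The libraries were made with an mRNA kit, and the part of that step in these values was not tested.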

How the results depend on the processing

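No paired analysis was possible because each strain has 1 library in raffinose. The 288 ORFs higher, 65 lower and 64 higher within 25 kb of an end became 157, 40 and 27 with a pseudocount of 5 FPKM. Without overlapping ORFs 40 were lower, and without repeated ORFs 25 end ORFs were higher. Within 10 kb of an end 23 were higher. The next 2 settings were added after seeing the data. Without unsteady ORFs 30 were lower, and among clean ORFs 158 were higher, 13 lower and 21 higher at an end. The share of higher calls was 79.6 to 88.5% under every setting except the clean set, where it was 92.4%. The fold of the targeted gene HDA1 was 0.00417 with a pseudocount of 0.1 FPKM, 0.134 with 5 FPKM and 0.0282 on TPM. The median log2 fold of all tested ORFs was 0.0542 when scaled to the ORF sum, 0 when centred and 0.00026 with no expression minimum. That scaling turned the medians of 7 lists, all within 0.05 of 0, from at or below 0 to above it (DNA damage, galactose, ribosome biogenesis, mating, mitotic, other amino acid and zinc genes). It also moved 3 of the 34 list medians outside their intervals over ORFs, so those intervals do not cover the choice of scaling. Among the named genes called past the rule, none changed direction. A pseudocount shared by both libraries cannot turn a fold's direction, and the scalings shifted folds far less than the rule. That outcome was therefore fixed in advance and says nothing about how firm the calls are. With 1 library per strain, variation between cultures cannot be seen, and low fragment counts leave wide intervals for weakly expressed ORFs.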
